A study of Mus musculus with 2 samples.

Results

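The genes Cacna1a, Cacna1b, Cacna1c, Cacna1d, Cacna1e, Cacna1g, Cacna1h and Cacna1i encode pore-forming subunits of voltage-gated calcium channels, and their transcripts were measured in hippocampus of young mice. The genes were chosen by symbol and not by a rule on their values, although earlier results of these data were known at the time. They are 8 of the 55536 genes in the deposited tables and hold 100 of the 141767 annotated transcripts. All animals were male B6CASTF1/J, a first-generation cross of the strains C57BL/6J and CAST/EiJ, and were 14 days old. The series has a single group, without treatment or engineered allele in its labels, of 2 biological replicates. Each replicate is a total RNA library, depleted of ribosomal RNA, made from 300 ng of RNA with ERCC spike-ins, which are synthetic RNAs of known sequence. The labels name 3 males for each replicate and do not state whether their RNA was pooled. They also give both replicates the same donor entry beside different animal numbers, so how far the SD between them measures the spread between animals is not known. They call the tissue a layer of hippocampus and do not say which layer. With a single group, the comparisons open to these data are between genes, between transcripts of a gene and between the libraries.

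Voltage-gated calcium channels open when the membrane depolarises and admit calcium, which triggers transmitter release, enzyme activity and gene expression. The pore-forming subunit carries the voltage sensors, the gate and the selectivity filter in linked repeats of membrane segments, and it sets the type of current. Cacna1c and Cacna1d form L-type channels, found on cell bodies and dendrites of hippocampal neurons. Cacna1a (P/Q type), Cacna1b (N type) and Cacna1e (R type) supply much of the calcium for transmitter release at nerve terminals. Cacna1g, Cacna1h and Cacna1i form T-type channels, which open near the resting potential and take part in burst firing. Cytoplasmic beta subunits and extracellular alpha2delta subunits bring most of these channels to the surface.

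Several of these genes choose between alternative coding exons, and the exons whose use could be read from the deposited transcript tables are printed here. They were read from the mm10 reference with the GENCODE M21 annotation, so they are C57BL/6J sequence even though the animals also carry CAST/EiJ alleles. All lie on the minus strand and are given 5′ to 3′ along the transcript. Cacna1c holds 3 pairs of neighbouring exons of equal length, and Cacna1d holds a pair of the same length as the first of these. In each pair, capitals mark the bases at which its 2 exons differ. The 104-base exons encode the last membrane segment of the first repeat of the channel. They are at chr6:118742265-118742368 and chr6:118741871-118741974 in Cacna1c, and at chr14:30171956-30172059 and chr14:30171296-30171399 in Cacna1d.
Cacna1c 104-base upstream exon: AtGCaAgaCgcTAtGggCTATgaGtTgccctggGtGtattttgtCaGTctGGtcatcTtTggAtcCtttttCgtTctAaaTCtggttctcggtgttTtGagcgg
Cacna1c 104-base downstream exon: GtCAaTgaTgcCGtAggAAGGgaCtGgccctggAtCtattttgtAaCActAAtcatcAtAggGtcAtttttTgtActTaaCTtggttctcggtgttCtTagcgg
Cacna1d 104-base upstream exon: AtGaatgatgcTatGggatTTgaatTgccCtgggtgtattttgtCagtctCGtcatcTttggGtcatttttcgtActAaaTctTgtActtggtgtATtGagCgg
Cacna1d 104-base downstream exon: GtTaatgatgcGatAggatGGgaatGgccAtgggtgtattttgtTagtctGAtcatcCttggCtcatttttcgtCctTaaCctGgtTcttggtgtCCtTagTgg

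The 60-base pair of Cacna1c, at chr6:118674555-118674614 and chr6:118674346-118674405, and its 84-base pair, at chr6:118638427-118638510 and chr6:118637730-118637813, also encode alternative forms of membrane segments. Capitals again mark the bases that differ within the pair.
Cacna1c 60-base upstream exon: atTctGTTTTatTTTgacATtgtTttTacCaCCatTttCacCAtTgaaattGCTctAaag
Cacna1c 60-base downstream exon: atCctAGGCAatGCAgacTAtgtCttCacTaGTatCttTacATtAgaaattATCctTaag
Cacna1c 84-base upstream exon: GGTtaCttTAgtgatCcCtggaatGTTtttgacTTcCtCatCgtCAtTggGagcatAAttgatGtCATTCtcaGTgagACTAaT
Cacna1c 84-base downstream exon: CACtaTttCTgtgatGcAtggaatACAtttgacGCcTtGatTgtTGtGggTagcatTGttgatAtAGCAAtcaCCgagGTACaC

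The 104-base exons of Cacna1c differ at 32 bases (69.2% identity) and those of Cacna1d at 22 bases (78.8%). Across the genes, the upstream exons of Cacna1c and Cacna1d differ at 14 bases (86.5% identity) and the downstream exons at 21 bases (79.8%). Each exon was thus closer to the exon in the same position of the other gene than to its own neighbour. The upstream exon of Cacna1c and the downstream exon of Cacna1d differ at 26 bases (75.0%), and the downstream exon of Cacna1c and the upstream exon of Cacna1d at 29 (72.1%). The 60-base pair differs at 25 bases and the 84-base pair at 35 bases, each with 58.3% identity. These 8 exons and the 10 single exons described further on all lie inside annotated coding sequence.

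The gene tables held 29144848 expected counts (estimated reads per gene) in replicate 1 and 31755544 in replicate 2. Levels are given as TPM, a length-corrected share of all transcripts in a library, which allows genes to be compared. Of the hippocampal excitatory neuron markers, all 8 were present, from C1ql2, a granule cell gene, at 17.52 and 25.9 TPM to Slc17a7 at 663.0 and 686.9 TPM in replicates 1 and 2. Protein-coding genes took 46.2% and 48.5% of the TPM, and the rest went to structural and other RNAs. The libraries differed in cell type markers. The test between libraries described below called 22.5% of all genes, and 47.8% of those with a mean count from 2000 to 20000. By that test, 4 of the 8 hippocampal markers were higher in replicate 2 and 1, Grik4, was higher in replicate 1. Log2 ratios ran from -0.16 for Bok to 0.51 for C1ql2, with 0.43 for Prox1, -0.15 for Grik4 and -0.0012 for Slc17a7. Of 6 neocortical markers, 4 were higher in replicate 2 and the other 2 in replicate 1. Summed over 8 markers of myelinating oligodendrocytes the level was 1771 TPM in replicate 1 and 943 TPM in replicate 2, with all 8 past the same test. The sums were 62.2 and 41.0 TPM for 6 thalamic markers, with 5 of 5 tested past it and Gbx2 at 0.05 and 0 TPM. Slc17a6 passed on counts (1060 and 852), although its TPM was 13.1 and 13.3. For 6 choroid plexus markers the sums were 90.9 and 48.6 TPM, with 3 of 5 past the test. Most of that was Ttr, at 85.9 and 45.8 TPM, and 4 of the 6 were under 1 TPM. All oligodendrocyte, thalamic and choroid plexus markers that passed were higher in replicate 1 on counts. For 6 interneuron markers the sums were 330 and 438 TPM, and 4 passed upwards in replicate 2 and 1, Pvalb, downwards. Fewer markers passed edgeR's exact test with a preset biological coefficient of variation of 0.1, which called 0.950% of all genes. These were 7 oligodendrocyte, 2 thalamic, 2 choroid plexus and 1 neocortical, with no hippocampal or interneuron marker among them.

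All 8 pore subunit genes were expressed, with a median over genes of 40.3 TPM, against 15.3 TPM over the 12898 protein-coding genes that reached 1 TPM in each library. Cacna1a and Cacna1e led and Cacna1i and Cacna1d were lowest. The P/Q-, N- and R-type genes together made up 59.3% ± 0.201 of the TPM of the 8 genes (SD, n = 2), the T-type genes 25.9% ± 0.476 and the L-type genes 14.8% ± 0.677. All 8 summed to 388.6 TPM in replicate 1 and 385.8 TPM in replicate 2. Every gene rested on at least 2484 counts in each library, and the deposited posterior standard deviation of the count, which measures doubt about which gene a read belongs to, was 0 for all 8 in both libraries.

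Cacna1a (ENSMUSG00000034656.17, chromosome 8, 84388440 to 84640246, plus strand, mm10) encodes the P/Q-type pore, the main release channel of many mature terminals. It had 108.6 TPM in replicate 1 and 113.0 TPM in replicate 2 (110.8 ± 3.14, SD, n = 2), from 8822 and 9562 counts. It was the highest of the 8 genes in both libraries and ranked 771 among the 12898 detected coding genes.

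Cacna1e (ENSMUSG00000004110.16, chromosome 1, 154390731 to 154884501, minus strand) encodes the R-type pore. Its level was 77.3 TPM in replicate 1 and 73.5 TPM in replicate 2 (75.4 ± 2.70). It drew more reads than any other of the 8 genes, with 18007 and 18614 counts and a mean effective transcript length of 11544 and 11788 bases, against 4026 and 3937 bases for Cacna1a. Cacna1b (ENSMUSG00000004113.18, chromosome 2, 24603887 to 24763152, minus strand), the N-type pore, had 43.9 and 42.8 TPM (43.3 ± 0.806). These 3 release-associated genes thus spanned a range from 43.3 to 110.8 TPM.

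Of the L-type genes, Cacna1c (ENSMUSG00000051331.15, chromosome 6, 118587240 to 119196418, minus strand) is the longest of the 8, with 609 kb. It had 35.8 TPM in replicate 1 and 32.3 TPM in replicate 2 (34.0 ± 2.47). Cacna1d (ENSMUSG00000015968.17, chromosome 14, 30039939 to 30491455, minus strand), whose channels open at more negative voltages than those of Cacna1c, had 23.8 and 23.2 TPM (23.5 ± 0.431). Cacna1c was above Cacna1d in both libraries, by 1.45-fold on average. The other L-type genes were under 1 TPM. Cacna1s, the skeletal muscle pore, was at 0.86 and 0.47 TPM, and Cacna1f, the retinal pore, was at 0.09 and 0.01 TPM from 3 and 1 counts.

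Of the T-type genes, Cacna1h and Cacna1g had similar levels and Cacna1i was lower. Cacna1h (ENSMUSG00000024112.16, chromosome 17, 25374285 to 25433783, minus strand) had 41.2 TPM in replicate 1 and 40.0 TPM in replicate 2 (40.6 ± 0.891). Cacna1g (ENSMUSG00000020866.17, chromosome 11, 94408391 to 94474198, minus strand) had 38.9 and 40.9 TPM (39.9 ± 1.41), so the order of the pair turned between the libraries. Cacna1i (ENSMUSG00000022416.15, chromosome 15, 80287238 to 80398279, plus strand), whose channels inactivate most slowly of the T types, was the lowest of all 8 genes, at 19.1 and 20.2 TPM (19.6 ± 0.827).

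**Figure D1:**
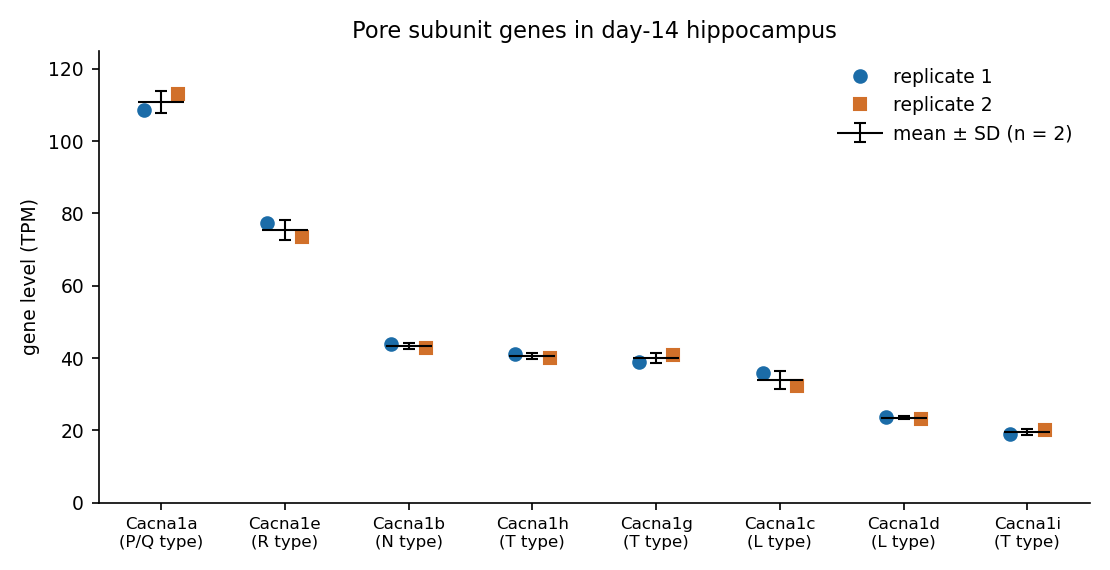
Level of each pore subunit gene in TPM (vertical axis), with replicate 1 as circles, replicate 2 as squares and the mean ± SD of the 2 libraries as bars. Cacna1a lies at 108.6 and 113.0 TPM, and Cacna1i, the lowest gene, at 19.1 and 20.2 TPM.

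The order of the mean levels was Cacna1a, Cacna1e, Cacna1b, Cacna1h, Cacna1g, Cacna1c, Cacna1d and Cacna1i. A step between neighbours was called beyond the spread where the log2 ratio had the same sign in both libraries and its mean exceeded 2 SD of the library ratios. No p-value was computed, since the smallest two-sided p that sign flips of 2 libraries allow is 0.5. The rule is lenient, since an SD from 2 libraries is poorly estimated and the order was set by the same means. By that rule 5 of the 7 neighbouring steps and 25 of all 28 pairs were beyond the spread. Cacna1a exceeded Cacna1e by 0.56 ± 0.0926 on the log2 scale (1.47-fold) and Cacna1e exceeded Cacna1b by 0.80 ± 0.0249 (1.74-fold). The step from Cacna1c to Cacna1d was 0.53 ± 0.0785. The steps from Cacna1b to Cacna1h, at 0.09 ± 0.0048, and from Cacna1d to Cacna1i, at 0.26 ± 0.0873, were smaller. The pairs not beyond the spread were Cacna1h with Cacna1g (0.02 ± 0.0825), Cacna1g with Cacna1c (0.23 ± 0.156) and Cacna1b with Cacna1g (0.12 ± 0.0777). The genes from Cacna1b to Cacna1c lay between 34.0 and 43.3 TPM. They were not all unresolved, since Cacna1b (0.35 ± 0.0782) and Cacna1h (0.26 ± 0.0734) were each above Cacna1c beyond the spread.

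A gene's TPM is the sum over all its annotated transcripts, and short ones need few reads for a high TPM. Cacna1a shows how far this goes. Its full coding transcript Cacna1a-201, of 7926 bases, had 47.4 TPM in replicate 1 and 49.99 TPM in replicate 2, or 43.9% ± 0.431 of the gene's TPM but 86.4% ± 2.23 of its counts. Cacna1a-210, of 549 bases and the class processed_transcript (no coding sequence annotated), had 29.7 and 32.0 TPM, or 27.8% ± 0.693 of the TPM from 3.14% ± 0.129 of the counts. Of the bases of Cacna1a-210, 82.3% lie in exons of Cacna1a-201.

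The share of TPM in transcripts not classed as protein_coding was 54.2% ± 0.474 in Cacna1a, 62.7% ± 1.73 in Cacna1d and 45.7% ± 1.15 in Cacna1g. It was 29.6% ± 5.45 in Cacna1h, 23.9% ± 2.62 in Cacna1e and 15.2% ± 4.89 in Cacna1c. In Cacna1b it was 0.565% ± 0.0919, and in Cacna1i such transcripts were listed at 0. The second deposited transcript table, described below, gave Cacna1i 12.7% in replicate 1 and 15.3% in replicate 2, all in Cacna1i-205, of 6913 bases. The median over the 8 genes was 26.8%, beside 17.0% over the 10168 detected genes with both kinds of transcript. As a share of counts the median was 5.56% for the 8 genes and 7.35% for all, so the order of these medians depended on the scale. Cacna1d stood apart on the count scale too, with 49.3% of its counts outside the protein_coding class. Its transcript Cacna1d-208, of 9658 bases and the class nonsense_mediated_decay (predicted to be degraded), alone held 24.6% ± 0.596 of the counts and 13.4% ± 0.247 of the TPM.

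**Figure D2:**
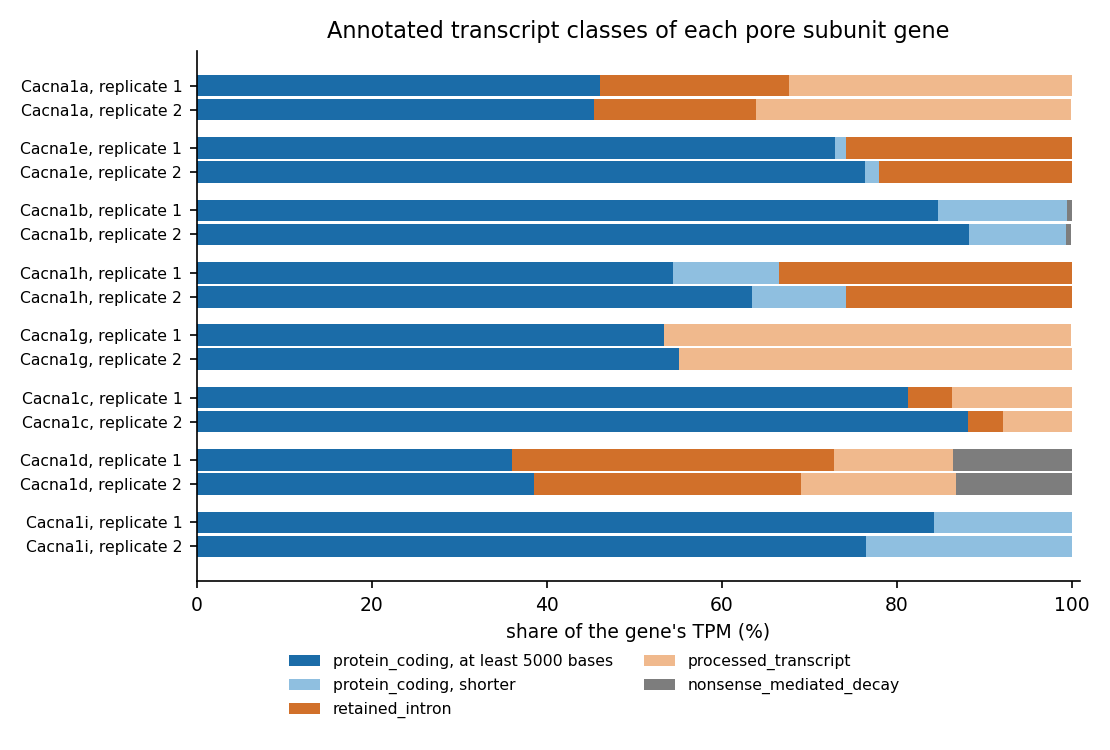
Share of each gene's TPM (horizontal axis, percent) in 5 annotated transcript classes, with a bar for each library. Long protein_coding transcripts hold the least of the TPM in Cacna1d, at 36.1% and 38.5%, and Cacna1b and Cacna1c reach 88.3% and 88.2% in replicate 2.

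Counting only protein_coding transcripts of at least 5000 bases, which can hold a complete channel, the level of Cacna1a was 50.1 TPM in replicate 1 and 51.4 TPM in replicate 2. That of Cacna1e was 56.4 and 56.1 TPM, above Cacna1a in both libraries, so the order of the leading genes turned. Cacna1b followed at 37.2 and 37.8 TPM. Cacna1c, at 29.1 and 28.5 TPM, moved above Cacna1h, at 22.4 and 25.4 TPM, and Cacna1g, at 20.8 and 22.5 TPM. Cacna1d fell to 8.58 and 8.91 TPM, the lowest of the 8, below Cacna1i at 16.1 and 15.5 TPM. The log2 ratio of Cacna1a to Cacna1e was -0.15 ± 0.0312 on this measure, that of Cacna1g to Cacna1c -0.41 ± 0.104 and that of Cacna1d to Cacna1i -0.85 ± 0.0760. The shares of the channel families stayed near those over all transcripts, at 59.4% ± 0.47 for the P/Q, N and R types, 25.2% ± 0.796 for the T types and 15.4% ± 0.326 for the L types. The length limit was chosen after the short transcripts were seen.

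**Figure D3:**
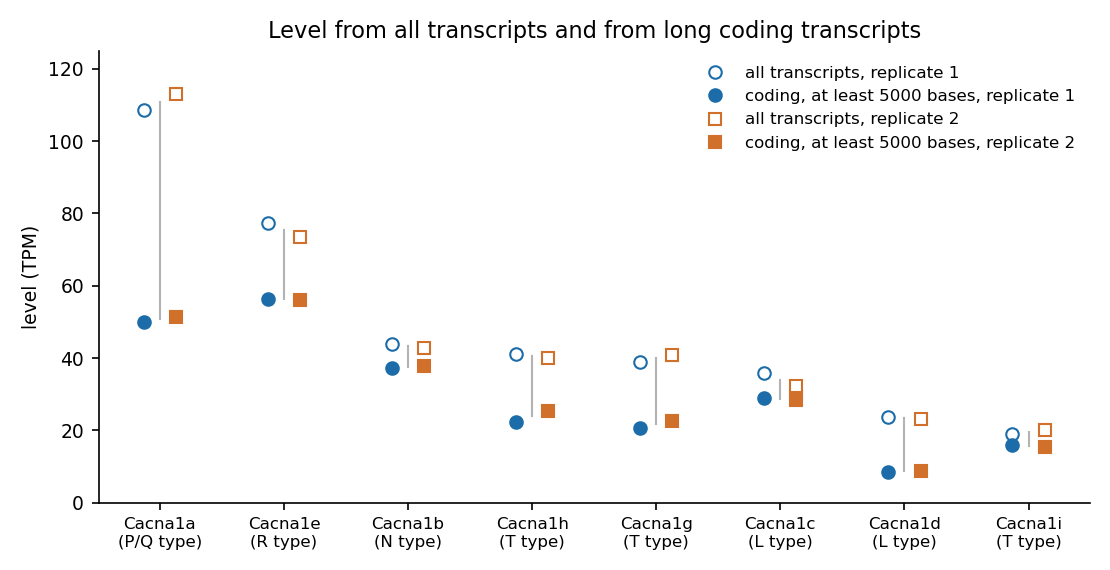
Level in TPM (vertical axis) from all transcripts of a gene (open symbols) and from its protein_coding transcripts of at least 5000 bases (filled symbols), with circles for replicate 1, squares for replicate 2 and a grey line between the means. Cacna1a drops from 110.8 to 50.7 TPM and Cacna1d from 23.5 to 8.74 TPM, while Cacna1c drops from 34.0 to 28.8 TPM.

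A transcript was called leading where its mean share of the gene's TPM was highest. In Cacna1i the leading transcript was Cacna1i-202, with 84.3% in replicate 1 and 76.6% in replicate 2, and it is the only long coding transcript annotated there. Cacna1e-203 held 70.2% and 72.0% of the TPM of Cacna1e, and Cacna1h-205 held 53.3% and 62.5% of that of Cacna1h. Each of these 3 took over 50% of its gene on average. Cacna1c-207, of 13162 bases, had 40.8% and 44.4%. In the other genes the TPM was more divided. Cacna1b-204 had 32.6% and 36.7%, close to Cacna1b-205 with 31.9% and 34.7%, while Cacna1b-202 had 19.4% and 16.9%. Cacna1g-203 had 24.8% and 32.6%, and Cacna1d-207 had 25.4% and 24.4%.

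The second deposited transcript table, in the layout of the program kallisto, gave the same leading transcript in 6 of the 8 genes. There Cacna1h-205 held 42.0% of Cacna1h, and of the 8 leading transcripts only Cacna1e-203 and Cacna1i-202 took over 50%. It ranked Cacna1b-205 first in Cacna1b, with 37.6% ± 1.90, and the 784-base processed_transcript Cacna1g-212 first in Cacna1g, with 22.9% ± 1.44 beside 22.3% ± 5.77 for Cacna1g-203. Other transcripts reached 10% only in that table. Cacna1h-201 had 14.2% there and was listed at 0 in the first table, as was Cacna1i-205 with 14.0% and Cacna1b-208 with 12.4%. Cacna1h-210 had 12.2% there and 6.61% in the first table. Cacna1h-207, of 879 bases, had 20.1% against 2.10% in the first table, and Cacna1c-218, of 954 bases, 12.1% against 3.08%. Cacna1e-207 had 15.8% against 3.60%, and Cacna1i-201 13.9% against 4.28%. Conversely, Cacna1d-212 had 12.4% in the first table and 0.356% in the second, and Cacna1d-203 had 12.9% and 5.03%. The tables differ in the bases taken off a transcript's length before scaling, 99 in the first and 346 in the second. The effect of this on the shares was not tested.

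The remaining transcripts with at least 10% of a gene were Cacna1c-216 with 29.9% ± 2.63 and Cacna1c-203 with 10.4% ± 0.12 of Cacna1c, and Cacna1g-214 with 17.4% ± 0.276 and Cacna1g-212 with 17.5% ± 0.714 of Cacna1g. Cacna1e-206, a retained_intron transcript, held 13.1% ± 1.23 of Cacna1e, and the processed_transcript Cacna1d-206 15.7% ± 2.91 of Cacna1d. The T-type fragments Cacna1h-204 and Cacna1i-203 held 14.6% and 15.3%, and the fragment Cacna1b-206 held 12.4%. All 3 were at 0 in the second table. Cacna1g-201 reached 13.3% in the second table only, where Cacna1d-202 had 21.6%, against 9.43% in the first.

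Use of the printed exons was read as the share of a gene's long coding TPM in transcripts that hold the exon. The 2 L-type genes differed at the 104-base pair. In Cacna1c the upstream exon was in 63.1% of the long coding TPM in replicate 1 and 62.2% in replicate 2, and the downstream exon in the other 37.3% ± 0.627. In Cacna1d the upstream exon was in 9.56% and 0.112%, and the downstream exon in 90.4% and 99.9%. The second table gave 59.2% and 60.4% for the upstream exon of Cacna1c and 5.13% and 0% for that of Cacna1d. In every library and table Cacna1c was above Cacna1d. In replicate 1 the upstream share of Cacna1d came from Cacna1d-209, at 0.82 TPM, which was at 0 in replicate 2. The long coding transcripts held 37.3% ± 1.72 of the TPM of Cacna1d, beside 84.8% ± 4.89 in Cacna1c. Use of the pair in the other transcripts was not examined.

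Of the other pairs of Cacna1c, the 84-base exons had about equal estimated shares and the 60-base exons did not. The 84-base upstream exon was in 50.81% and 50.77% of the long coding TPM, with the downstream exon at 49.2% and 49.4%. The 60-base upstream exon was in 35.4% and 37.0%, with the downstream exon at 64.0% and 62.8%. Of the 22 long coding transcripts, 3 hold both 84-base exons and 2 hold both 60-base exons, each set with at most 0.176% of the TPM in the first table and 0.902% in the second. A single 75-base exon of Cacna1c, at chr6:118715903-118715977 in the loop after the first repeat, was in 36.9% and 37.6%.

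These shares are not independent of each other. Of the long coding TPM of Cacna1c, 97.9% lay in 3 transcripts. Cacna1c-207 (50.3% ± 0.0905) joins the upstream 104-base, downstream 60-base and upstream 84-base exons. Cacna1c-203 (12.3% ± 0.572) holds the downstream 84-base exon instead and is otherwise alike at these pairs. The near-even shares of the 84-base exons thus depend on how reads were divided between Cacna1c-207 and Cacna1c-203. The SDs cover the spread between libraries and not doubt in that division. Cacna1c-216 (35.3% ± 1.06) takes the other exon of the 104- and 60-base pairs, the downstream 84-base exon and the 75-base exon. The shares also use reads from the whole of each transcript and not only from the exon, and Cacna1c-207 has 13162 bases against 7338 in Cacna1c-216, with coding lengths of 6507 and 6492 bases. Reads across the exon junctions were not analysed here.

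In Cacna1d, exons of 45 and 60 bases, at chr14:30082952-30082996 and chr14:30129789-30129848, belong to the same long coding transcript, Cacna1d-207. It held 70.5% of the long coding TPM in replicate 1 and 63.3% in replicate 2, but 49.7% and 48.5% in the second table. Cacna1d-202, which lacks both exons, had 15.2% and 34.8% in the first table and 45.2% and 51.5% in the second. The difference between tables was larger than that between libraries for Cacna1d-207.

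In Cacna1b, exons of 12 and 6 bases add a few amino acids to the outer loops beside the voltage sensors. They are printed here because they set apart the leading transcripts, Cacna1b-205 with the 12-base exon and Cacna1b-204 and Cacna1b-202 with the 6-base exon, and lie at chr2:24656711-24656722 and chr2:24642853-24642858. Capitals mark the whole inserted exon.
Cacna1b 12-base exon: GAGCTTCATGGG
Cacna1b 6-base exon: GAAACG

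No annotated long coding transcript of Cacna1b holds both exons. The 12-base exon was in 38.6% of the long coding TPM in replicate 1 and 39.3% in replicate 2, and the 6-base exon in 61.4% and 60.7%. The second table gave 43.7% and 47.3% for the 12-base exon. Since the transcripts with the 6-base exon have 9736 and 9655 bases against 6987 in Cacna1b-205, mostly outside the coding sequence, exon use and transcript end cannot be told apart from these shares. An exon of 108 bases at chr2:24618255-24618362 was in 77.1% and 80.9%.

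Cacna1g has 11 long coding transcripts in the annotation, fewer than the 22 of Cacna1c alone. Its 54-base exon, at chr11:94423671-94423724 in the loop between the third and the fourth repeat, was in 81.4% of the long coding TPM in replicate 1 and 84.8% in replicate 2. It is printed, in capitals throughout, as the optional whole exon of the T-type genes with the highest mean share over the libraries in both tables. In replicate 2 of the first table the 69-base exon described next was slightly higher.
Cacna1g 54-base exon: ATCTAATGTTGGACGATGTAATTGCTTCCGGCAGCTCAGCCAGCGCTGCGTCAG

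The 69-base exon of Cacna1g, at chr11:94439709-94439777, was in 74.8% and 85.3%, and in 65.5% and 73.7% in the second table. Exons of 135 and 144 bases found together in Cacna1g-207 were in 9.90% and 11.0%. An exon upstream of the 54-base exon has 2 ends, and the shorter form of 193 bases was in 70.0% and 81.4%, with the form of 214 bases in the rest. Cacna1a and Cacna1e gave no optional whole exon between 10% and 90% in both tables. Cacna1h and Cacna1i could give none from this annotation. Cacna1i has 1 long coding transcript, and the coding exons of the 3 of Cacna1h differ only in their boundaries. In Cacna1a, 96.4% ± 1.97 of the long coding TPM used the 93-base form of an exon whose other form is 3 bases shorter. In Cacna1e, the 129-base exon of Cacna1e-207 was in 3.88% and 5.74%, and in 18.4% and 21.2% in the second table.

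**Figure D4:**
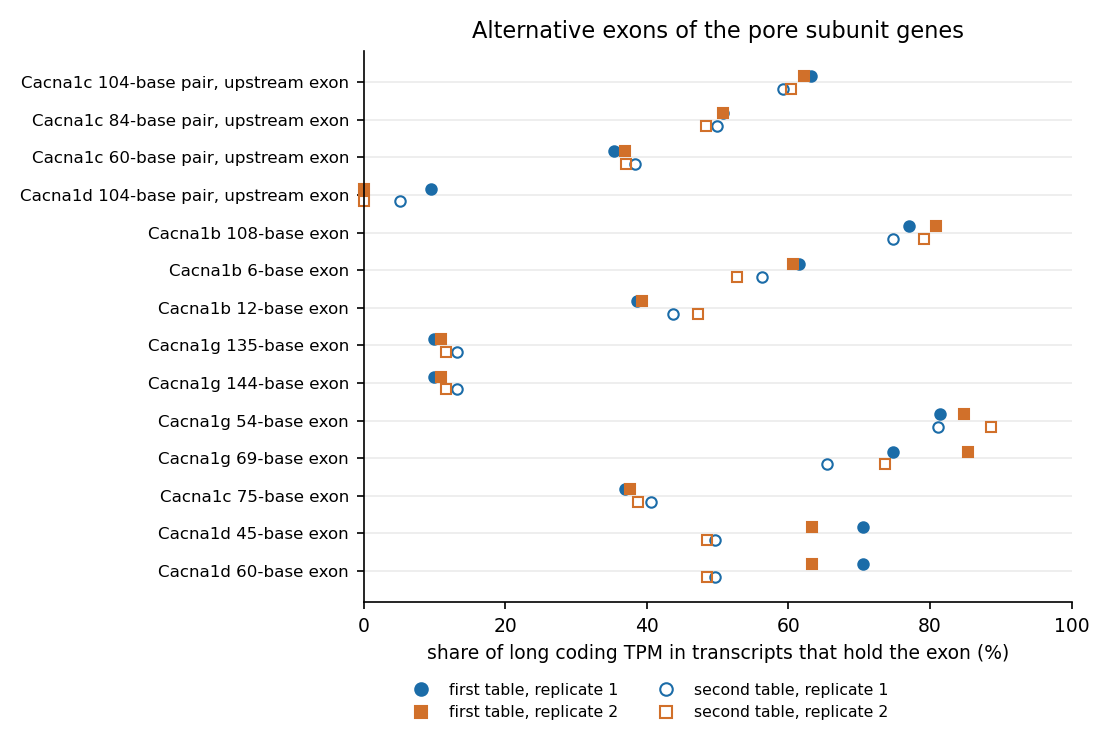
Share of long coding TPM in transcripts that hold each alternative exon (horizontal axis, percent), with circles for replicate 1 and squares for replicate 2, filled for the first and open for the second transcript table. For each equal-length pair only the upstream exon is drawn: it is at 63.1% and 62.2% in Cacna1c and at 9.56% and 0.112% in Cacna1d for the 104-base pair.

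The libraries were compared gene by gene with a binomial test, exact and two-sided, on TMM-scaled expected counts, with Benjamini-Hochberg adjustment over 18322 genes and a threshold of 0.05. The test compares these libraries beyond counting error and does not compare conditions. Of the 8 genes, 4 passed, 3 of them higher in replicate 1 and 1 higher in replicate 2. Over all genes 22.5% passed, 10.7% higher in replicate 1 and 11.9% higher in replicate 2. Among the 3001 genes with a mean count from 2000 to 20000, which holds all 8 genes, 47.8% passed, so that 4 of 8 was near the background for their depth. The median absolute log2 ratio was 0.083 for the 8 genes, 0.077 for genes of that count range and 0.14 for all genes tested. The signed median was -0.06 for the 8 genes and -0.0030 for all.

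Cacna1c had 6273 counts in replicate 1 and 6418 in replicate 2, which after scaling was a log2 ratio of -0.11 (95% counting interval -0.16 to -0.06; adjusted p = 0.000179, exact binomial test). Cacna1e had a ratio of -0.10 (-0.13 to -0.07; adjusted p = 5.56e-09) and Cacna1i, from 3162 and 3263 counts, -0.10 (-0.17 to -0.03; adjusted p = 0.0312). Cacna1h, from 3945 and 4631 counts, was higher in replicate 2, at 0.09 (0.03 to 0.15; adjusted p = 0.0273), although its TPM was 41.2 and 40.0. The other 4 genes lay between -0.08 for Cacna1d and 0.05 for Cacna1g, with adjusted p from 0.157 to 0.395. Intervals cover counting error only.

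None of the 8 genes passed edgeR's exact test with a preset biological coefficient of variation of 0.1 (adjusted p = 1 for each), which called 0.950% of all genes. With library sizes from total counts or DESeq2 size factors, 3 of the 8 passed, beside 23.7% and 23.9% of all genes, and Cacna1i did not (adjusted p = 0.102 and 0.122). On the scale of the ERCC spike-ins all 8 ratios were above 0, from 0.0025 for Cacna1c to 0.20 for Cacna1h, and 4 of the 8 passed, beside 35.6% of all genes. These were Cacna1a, Cacna1b, Cacna1g and Cacna1h, all higher in replicate 2. Cacna1c, Cacna1e and Cacna1i changed sign on that scale and did not pass (adjusted p = 0.975, 0.402 and 0.806, exact binomial test), so Cacna1h alone was called on both scales. Markers of myelinating oligodendrocytes, thalamic neurons and choroid plexus were lower in replicate 2 (above), and their part in the ratios of the 8 genes was not tested. In bulk tissue, fewer cells of a type and less RNA per cell cannot be told apart.

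**Figure D5:**
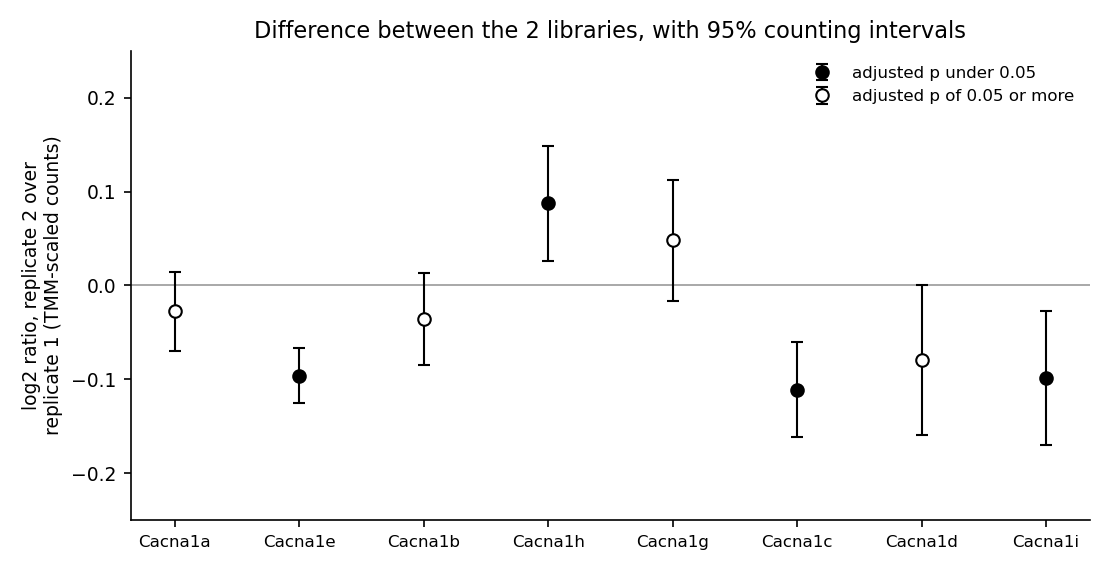
Log2 ratio of replicate 2 to replicate 1 on TMM-scaled counts (vertical axis) for each gene, with 95% counting intervals as bars and filled symbols for genes past the binomial test. Cacna1c, Cacna1e and Cacna1i lie at -0.11 to -0.10 and Cacna1h at 0.09.

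The partners of the pore were taken from lists of 42 genes. Of these, 39 were tested, and 6 were higher in replicate 2 and 11 higher in replicate 1 (43.6%, beside 22.5% of all genes). Among all genes with a mean count from 2000 to 20000, 47.8% passed. The depth of the partners varied widely, with 25 and 21 counts for Stac3 and 13240 and 15826 for Unc13a. Whether 43.6% exceeds the rate for genes of like depth was not tested. All 4 beta subunit genes were expressed. Cacnb3 led with 66.6 and 72.0 TPM, followed by Cacnb1 with 54.7 and 61.9 TPM, Cacnb2 with 34.1 and 30.4 TPM and Cacnb4 with 30.5 and 29.4 TPM. Cacnb1 was higher in replicate 2 (log2 ratio 0.10) and Cacnb2 higher in replicate 1 (-0.22). Their sum was 186 and 194 TPM, below that of the 8 pore genes.

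Of the alpha2delta subunits, which bind gabapentinoid drugs in the case of Cacna2d1 and Cacna2d2, Cacna2d1 had 59.0 and 62.5 TPM and Cacna2d3 49.2 and 48.3 TPM. Cacna2d2 had 8.18 and 8.76 TPM. Cacna2d4 was at 0.62 and 0.61 TPM and was higher in replicate 1 on counts (39 and 21). Among the 8 gamma-named genes, several of which are now known as auxiliary subunits of AMPA receptors, Cacng8 was highest with 163 and 188 TPM, then Cacng7 with 50.6 and 49.8 TPM. Cacng4 had 26.3 and 27.7 TPM and Cacng3 19.9 and 24.1 TPM. Cacng8, Cacng4 and Cacng3 were higher in replicate 2 and Cacng5 higher in replicate 1. Cacng1, the gamma subunit of the skeletal muscle channel, was at 0.09 and 0.08 TPM, and Cacng6 at 0.77 and 0.97 TPM.

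Genes of the active zone, which hold the P/Q- and N-type channels near vesicles, had a median of 61.3 TPM. Unc13a was at 118 and 127 TPM, Rims1 at 109 and 114 TPM and Erc2 at 112 and 106 TPM. Tspoap1, a RIM-binding protein, was at 68.2 and 65.6 TPM. Of 8 tested, Unc13a and Erc1 were higher in replicate 2 and Tspoap1, Rims2 and Rims3 higher in replicate 1. Small GTPases and adaptors that act on the channels were low, with a median of 2.07 TPM over 8 genes. Cabp1, a calcium-binding modulator, led these with 44.9 and 39.9 TPM, and Stac2 and Rem2 had 13.0 and 11.4 TPM and 13.1 and 11.5 TPM, both higher in replicate 1. Stac, an adaptor of L-type channels, had 1.83 and 2.83 TPM, and Rem1, Rrad and Gem were each under 1 TPM.

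Intracellular release channels and calcium-activated potassium channels, which lie downstream of calcium entry, had a median of 41.1 TPM. Ryr2 had 74.5 and 66.0 TPM, Kcnma1 63.3 and 56.8 TPM, Itpr1 59.0 and 59.6 TPM and Kcnn2 51.2 and 50.3 TPM. Ryr2, Ryr3 and Kcnma1 were higher in replicate 1, and none of the 8 was higher in replicate 2. No protein-coding gene overlapped any of the 8 pore genes on its own strand. On the opposite strand, Dcp1b, which overlaps Cacna1c, had 7.24 and 6.68 TPM, and Dcp1a, which overlaps Cacna1d, had 8.10 and 7.59 TPM. The sources used here do not say whether counting used the strand. The deposited posterior standard deviation of the count was 0 for Cacna1c and Cacna1d in both libraries. These overlaps are of whole gene spans, and neither overlap of exons nor the division of reads within these pairs was tested. On the same strand, the pseudogene Gm18981 inside Cacna1c had 1.06 and 0.87 TPM.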

How the data were processed

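Total RNA of 2 hippocampal libraries was analysed. The authors deposited expected counts (estimated reads, not normalized) and TPM per gene and transcript, per the file headers in the layout of RSEM, with a posterior standard deviation and each transcript's percent of its gene's TPM. The columns of the second deposited transcript table, estimated counts and TPM, are in the layout of kallisto. The deposited TPM credibility bound is treated as a score and printed nowhere. Build mm10 and GENCODE M21 are named with the deposited tables. The aligner and quantifier settings are not given in the sources. Entries that carry only a number held 2.73e-05% and 9.4e-06% of counts, and were left out with the spike-ins.

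For the comparison of libraries, counts were rounded, genes under a mean count of 10 were left out, library sizes were scaled by TMM (edgeR 4.0.16, R 4.3.3), and log2 ratios had a prior count of 0.5. The test and the edgeR alternative were each checked on data simulated under its own noise model. The checks therefore do not cover further spread between real libraries. Alternatives used total counts, DESeq2 1.42.0 size factors, spike-ins, other filters, the second table and coding transcripts. A count of 0 allows 3 counts, or 0.103 and 0.0945 CPM. Python 3.11.15, numpy 2.4.6, scipy 1.17.1, pandas 2.3.3 and matplotlib 3.10.9 were used. The members and lists were chosen with earlier results of these data known. The text names all 8 members, from each partner list the up to 4 with the highest mean TPM, those under 1 TPM and those past the test, and transcripts that lead or reach 10% in either table. Other list genes are given only by counts. The overlapping genes and the rule for exons were added after values were seen.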

Additional observations from a re-analysis of the deposited data

How the results depend on the processing

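The summed level of the 8 genes, 387 TPM, was 582 in the second table, 818 rescaled to protein-coding genes, 265 as scaled counts per effective kb, 259 from protein_coding transcripts and 243 from those of at least 5000 bases (a limit chosen after seeing the data), and 386 to 389 with either library left out. The number of neighbouring steps beyond the spread in the direction of the main order, 5, was 4 or 5 in all settings. Steps that turned were not counted, although with protein_coding transcripts and with those of at least 5000 bases they too exceeded 2 SD. The step from Cacna1h to Cacna1g was beyond the spread only with those 2 limits (0.40 ± 0.0014 and 0.14 ± 0.0437). In the second table, the step from Cacna1b to Cacna1h was not beyond it (0.21 ± 0.148). With protein_coding transcripts, and with those of at least 5000 bases, the log2 ratio turned for Cacna1a to Cacna1e (-0.18 and -0.15), Cacna1g to Cacna1c (-0.41 and -0.41) and Cacna1d to Cacna1i (-1.17 and -0.85). Cacna1h to Cacna1g was -0.034 without replicate 1 and 0.083 without replicate 2. Genes with a transcript over 50% of TPM, 3, were 7 with either coding limit, 5 by counts and 2 in the second table, where Cacna1h-205 fell to 42.0%.

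Of the 4 genes past the binomial test, 0 passed edgeR's test with a preset coefficient of variation (0.950% of all genes called). With total counts or DESeq2 size factors 3 passed, since Cacna1i did not (adjusted p 0.102 and 0.122). With spike-in scaling, which shifted all ratios upwards, 4 passed but only Cacna1h of the same 4 genes. On that scale the log2 ratio of Cacna1a was 0.086, Cacna1b 0.078, Cacna1d 0.034, Cacna1e 0.017, Cacna1i 0.015 and Cacna1c 0.0025. That of Cacna1a was 0.0054 with the second table's counts. The cause was not tested. No paired analysis was possible because the series has a single group.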
